A study of Mus musculus with 16 samples.

Results

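Imprinted genes are transcribed mainly or only from the allele inherited from one parent. A list of 40 mouse imprinted genes was matched by symbol to the count tables, and 37 of them were found among 26761 gene symbols in all. Airn, Kcnq1ot1 and Rian, 3 long non-coding RNAs on the list, were not found in the count tables, so no expression value is given for them. All 37 found genes passed the filter on low counts. By textbook knowledge, in at least some tissues, 20 of the 37 are expressed from the maternal allele and 15 from the paternal allele. Expression of Gnas and Blcap depends on the isoform. Below, maternally and paternally expressed name these reported classes. The counts do not separate alleles, so each value is the sum over both.

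The series profiled polyadenylated RNA from mouse endoderm in 8 groups of 2 libraries. At embryonic day (E) 7.5 these were the extraembryonic visceral endoderm (exVE), which covers the extraembryonic region, and the embryonic visceral endoderm (emVE), which covers the epiblast. At E8.75 they were the whole gut tube processed as bulk tissue, the whole gut tube dissociated to cells, and 4 sections along the tube labelled anterior, anterior to midgut, midgut to posterior, and posterior. The groups carry no treatment, and the sample labels give neither a genotype nor the number of embryos per library; the protocols in the labels mention embryos carrying an Afp-GFP transgene, a reporter driven by regulatory sequence of a visceral endoderm gene, for gut tubes taken for single cells. The 2 libraries of a group are not stated to come from separate embryos or pools, so p-values measure only the spread between these libraries, which may be technical.

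Imprinting is set by DNA methylation that a germ line places on control regions and that the embryo then keeps on one allele. Many imprinted genes act on growth: Igf2 encodes a growth factor, Igf2r a receptor that removes it, and Cdkn1c an inhibitor of the cell cycle. Extraembryonic tissues are a main site of their action, since the placenta and yolk sac carry nutrients to the embryo.

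Several members lie in clusters that hold microRNAs, and 4 mature microRNAs are shown because their hosts, H19 and Mirg, passed in both comparisons with emVE below. The libraries hold polyadenylated RNA, so they measure the hosts and not the mature microRNAs. H19, a maternally expressed long RNA, holds the hairpin of miR-675. Mirg, a maternally expressed transcript of the Dlk1-Meg3 domain, spans 19 mature microRNAs on its own strand, of which 2 share the seed GGUUGCC. Seeds, bases 2 to 8, are in capitals, and the sequences are from RefSeq (GRCm38.p6).
mmu-miR-675-5p (chr7:142577112-142577133, minus strand): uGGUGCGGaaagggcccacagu
mmu-miR-675-3p (chr7:142577078-142577099, minus strand): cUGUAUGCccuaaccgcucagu
mmu-miR-453 (chr12:109735669-109735692, plus strand): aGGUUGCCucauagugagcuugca
mmu-miR-496a-5p (chr12:109739132-109739152, plus strand): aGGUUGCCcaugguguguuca

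Rtl1, a paternally expressed gene of retrotransposon origin in the same domain, has 25 mature microRNAs on the strand opposite to it. The sources used here do not say whether counting used strand, so reads from Rtl1 and from the maternal transcript antisense to it cannot be told apart. One of those opposite microRNAs shows the arrangement, with its seed in capitals.
mmu-miR-127-3p (chr12:109592888-109592909, plus strand): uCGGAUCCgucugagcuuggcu

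Promoter windows of 300 bases, from 250 before to 50 after the start of transcription, were taken from RefSeq (GRCm38.p6) for 31 of the 40 listed genes, which had 50 windows. These include Airn, Kcnq1ot1 and Rian, which have no expression values here. They were searched on both strands for TGCCGC (reverse complement GCGGCA), the hexamer bound by ZFP57 when methylated, and for the palindrome GGGGCCCC, a motif of the imprinted transcription factor PLAGL1; these motifs cannot overlap each other. TGCCGC was in 11 of the 50 windows (22%) and in 11.6% of 32851 windows of all genes. GGGGCCCC was in 3 of the 50 windows (6%), those of Ppp1r9a, Peg3 and Usp29, and in 1.08% of all windows. The median number of CpG sites was 12 in the members' windows and 7 in all windows. A match is a description of the letters and not a shown binding site. The windows of Peg3 and Plagl1 are shown for the PLAGL1 motif and for PLAGL1's own gene, and that of Meg3 for its place in the Dlk1-Meg3 domain; motif letters are in capitals.
Peg3 (chr7:6730370-6730669, minus strand): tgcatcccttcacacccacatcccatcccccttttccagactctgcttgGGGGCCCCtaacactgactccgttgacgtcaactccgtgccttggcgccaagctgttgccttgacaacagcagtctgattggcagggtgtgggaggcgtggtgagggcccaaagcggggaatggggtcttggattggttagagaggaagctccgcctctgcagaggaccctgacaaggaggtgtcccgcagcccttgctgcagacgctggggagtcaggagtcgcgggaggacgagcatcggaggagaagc
Plagl1 (chr10:13090582-13090881, plus strand): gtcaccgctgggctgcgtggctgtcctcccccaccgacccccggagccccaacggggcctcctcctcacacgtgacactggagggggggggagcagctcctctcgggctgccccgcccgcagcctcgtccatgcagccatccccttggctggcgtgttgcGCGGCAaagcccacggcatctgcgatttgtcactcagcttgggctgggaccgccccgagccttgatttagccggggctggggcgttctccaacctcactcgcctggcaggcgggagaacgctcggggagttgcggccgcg
Meg3 (chr12:109540746-109541045, plus strand): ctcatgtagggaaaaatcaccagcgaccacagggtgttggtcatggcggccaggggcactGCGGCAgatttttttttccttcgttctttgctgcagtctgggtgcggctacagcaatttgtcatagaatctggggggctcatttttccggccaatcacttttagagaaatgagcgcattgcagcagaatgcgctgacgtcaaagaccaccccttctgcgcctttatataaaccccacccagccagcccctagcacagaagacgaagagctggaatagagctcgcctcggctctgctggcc
The window of Usp29 (chr7:6730333-6730632, plus strand) overlaps that of Peg3 head to head, and the single GGGGCCCC lies in both.

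Libraries held 57061536 to 84509973 counts. Levels are given as CPM, the counts relative to a library total that was scaled by TMM, a factor that aligns most genes between libraries; the factors were 0.775 and 0.787 in exVE and 0.997 to 1.10 in the other libraries. As a check of the labels, 23 visceral endoderm markers summed to 46703 and 50549 CPM in exVE and 18180 and 19356 CPM in emVE. The same sum was 300 to 8135 CPM over the gut tube libraries, where 12 gut epithelial genes summed to 1551 to 4239 CPM. In emVE and exVE those 12 genes summed to 4514 and 4769 CPM and to 3880 and 3833 CPM, so this list does not set the gut tube apart. The 20 trophoblast markers listed, of which 16 passed the filter, summed to 213 and 208 CPM in exVE, 187 and 197 CPM in emVE and 119 to 202 CPM in the gut tube. In exVE against emVE 5 of the 16 rose and 2 fell. Elf5, a trophoblast stem cell factor, had 241 and 34 counts in exVE and 30 and 48 in emVE. Of the markers below the filter, Tpbpa was at 0 counts in all 16 libraries and Prl3d1 was at 0 in exVE and emVE. In these bulk samples, fewer cells of a type and less RNA per cell cannot be told apart.

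H19 was the highest member per length in every group. On the scale of CPM per kilobase of exon, H19 stood at 11641 in exVE, 4394 in emVE and 2453 in bulk gut tube. Igf2 was next in each of these 3 groups, with 612.7, 274 and 388 CPM per kilobase. Peg10, a paternally expressed gene of retrotransposon origin needed for the placenta, came next in exVE (369 CPM per kilobase) and in emVE (218), while Mest, a paternally expressed hydrolase of mesoderm, came next in bulk gut tube (218). The 37 members summed to 38707 and 38730 CPM in exVE, of which H19 was 74.3% and 73.7%. The sum was 17772 and 19721 CPM in emVE and 11179 to 20931 CPM in the gut tube libraries. Without H19, the sum of the other 36 was 9965 and 10198 CPM in exVE, 7901 and 7972 CPM in emVE and 6416 to 11981 CPM in the gut tube.

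**Figure D1:**
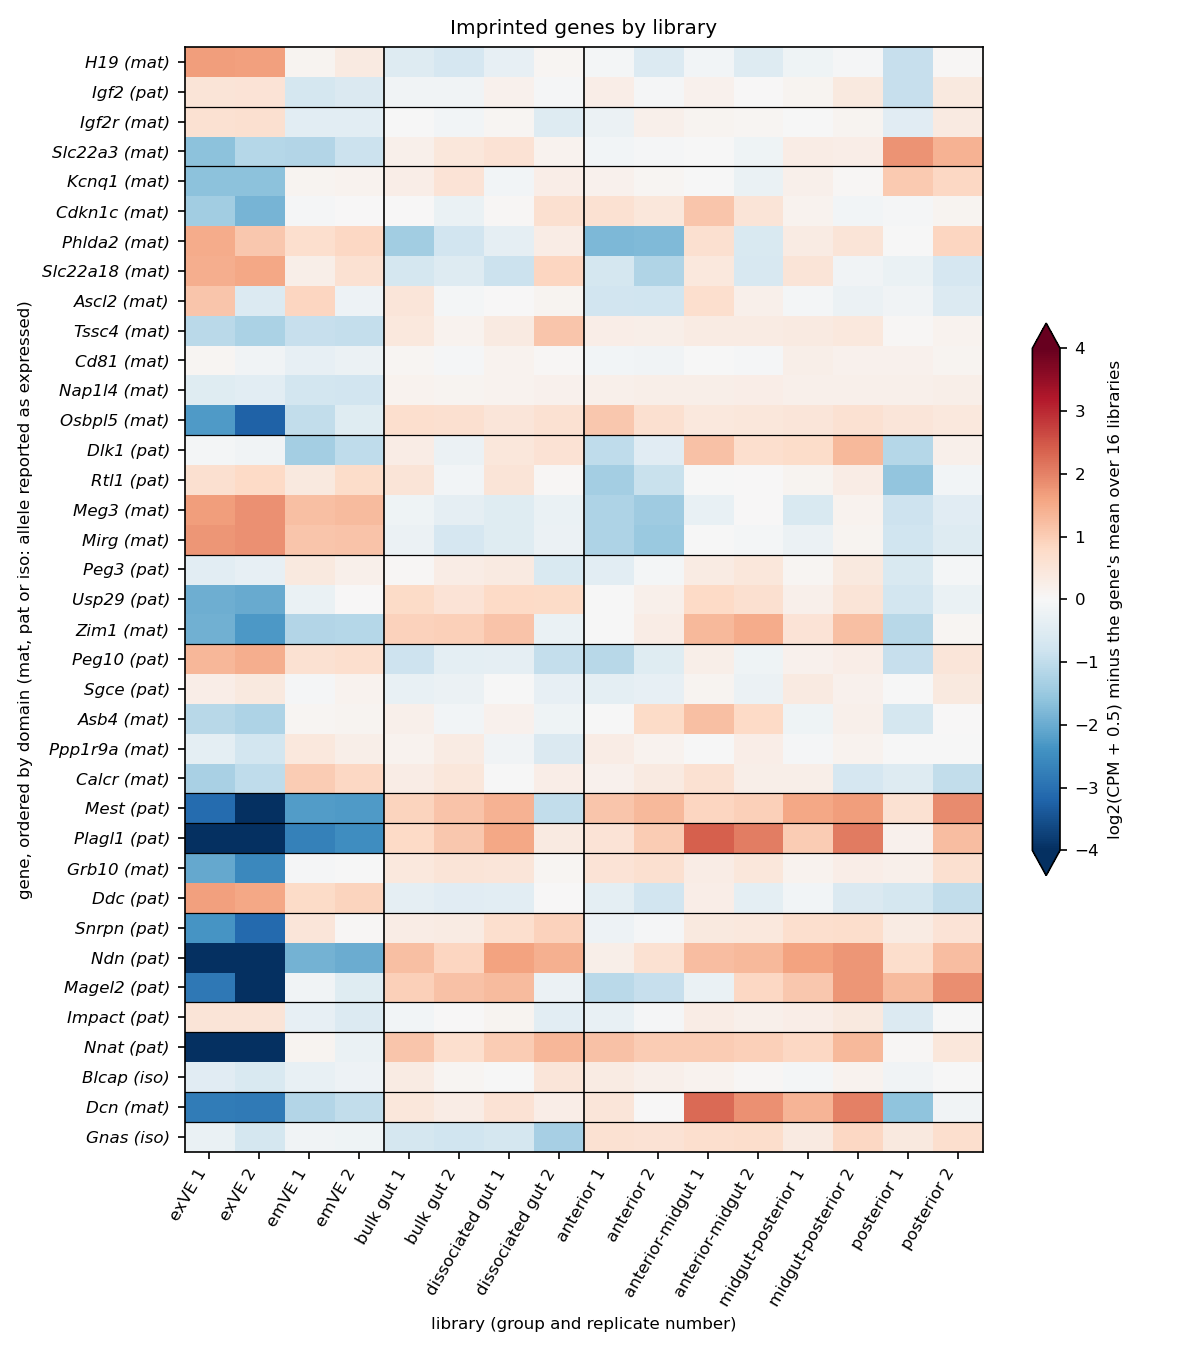
Level of each of the 37 imprinted genes (rows, ordered by domain, with the allele reported as expressed: mat, pat or iso) in the 16 libraries (columns), as log2(CPM + 0.5) minus the gene's own mean over the 16 libraries; colours stop at 4 in either direction. exVE is dark blue for Mest, Plagl1, Ndn, Magel2 and Nnat and red for H19, Meg3 and Mirg, and posterior replicate 1 is bluer than posterior replicate 2 for H19, Igf2, Dlk1, Rtl1 and Peg10.

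Levels varied among the 8 groups in 34 of the 37 members by edgeR's quasi-likelihood F-test at a Benjamini-Hochberg adjusted p under 0.05, where 71.4% of all 17313 genes tested passed. Igf2 (adjusted p = 0.102), Ascl2 (0.148) and Peg3 (0.0932) did not pass. The highest group mean lay in exVE for 13 members, in the section from anterior to midgut for 8, and in emVE for 2. The lowest group mean lay in exVE for more members than the highest did. For Dcn and Kcnq1 that exVE mean was 0.0396 CPM, so the ratios given next for them rest on few counts. The ratio of the highest to the lowest group mean was 388 for Dcn, 136 for Plagl1, 123 for Ndn, 96.1 for Nnat, 69.0 for Kcnq1, 48.2 for Magel2 and 40.2 for Mest, and exVE was the lowest group for each of these 7.

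Extraembryonic and embryonic visceral endoderm were compared at E7.5. The growth factor gene Igf2, its neighbour H19 and the receptor gene Igf2r were higher in exVE, while Snrpn, Ndn and Magel2 of the Prader-Willi domain, Nnat, Grb10 and 3 genes of the Kcnq1 domain were lower. Of the 37 members, 23 passed (62.2%), 9 higher and 14 lower in exVE, where 43.9% of all genes passed (20.1% higher and 23.8% lower). The median log2 fold change was -0.30 over the members and 0 over all genes tested. Both parental classes held genes of either direction: 5 of the 20 maternally expressed genes rose and 8 fell, and 4 of the 15 paternally expressed genes rose and 6 fell.

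H19 stood at 28742 and 28532 CPM in exVE against 9871 and 11749 CPM in emVE. The exVE libraries were also above all 12 gut tube libraries, which ran from 4764 to 9586 CPM. H19 rose by a log2 fold change of 1.41 (SE 0.27, adjusted p = 0.00138).

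Igf2 stood at 3476 and 3537 CPM in exVE and at 1497 and 1640 CPM in emVE. It rose by a log2 fold change of 1.16 (SE 0.30, adjusted p = 0.00810), a call that was lost without emVE replicate 1 (adjusted p = 0.0603). Here and below, a group with 1 library left out is a single library, which the fit assumes to vary like the other groups. Gm49394, an annotated protein-coding gene on the same strand, shares 62.8% of the exon length of Igf2 and was not found in the count tables, so the Igf2 values and the ratio of H19 to Igf2 depend on how the shared reads were assigned. Counts of H19 exceeded those of Igf2 8.27 and 8.07 times in exVE, 6.59 and 7.16 times in emVE, and 2.59 to 4.09 times in the gut tube libraries, so the ratios of the visceral endoderm and gut libraries did not overlap. Igf2r, which encodes the receptor that carries IGF2 to the lysosome, stood at 636.5 and 656 CPM in exVE and 314 and 313 CPM in emVE, a log2 fold change of 1.04 (SE 0.24, adjusted p = 0.00407).

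**Figure D2:**
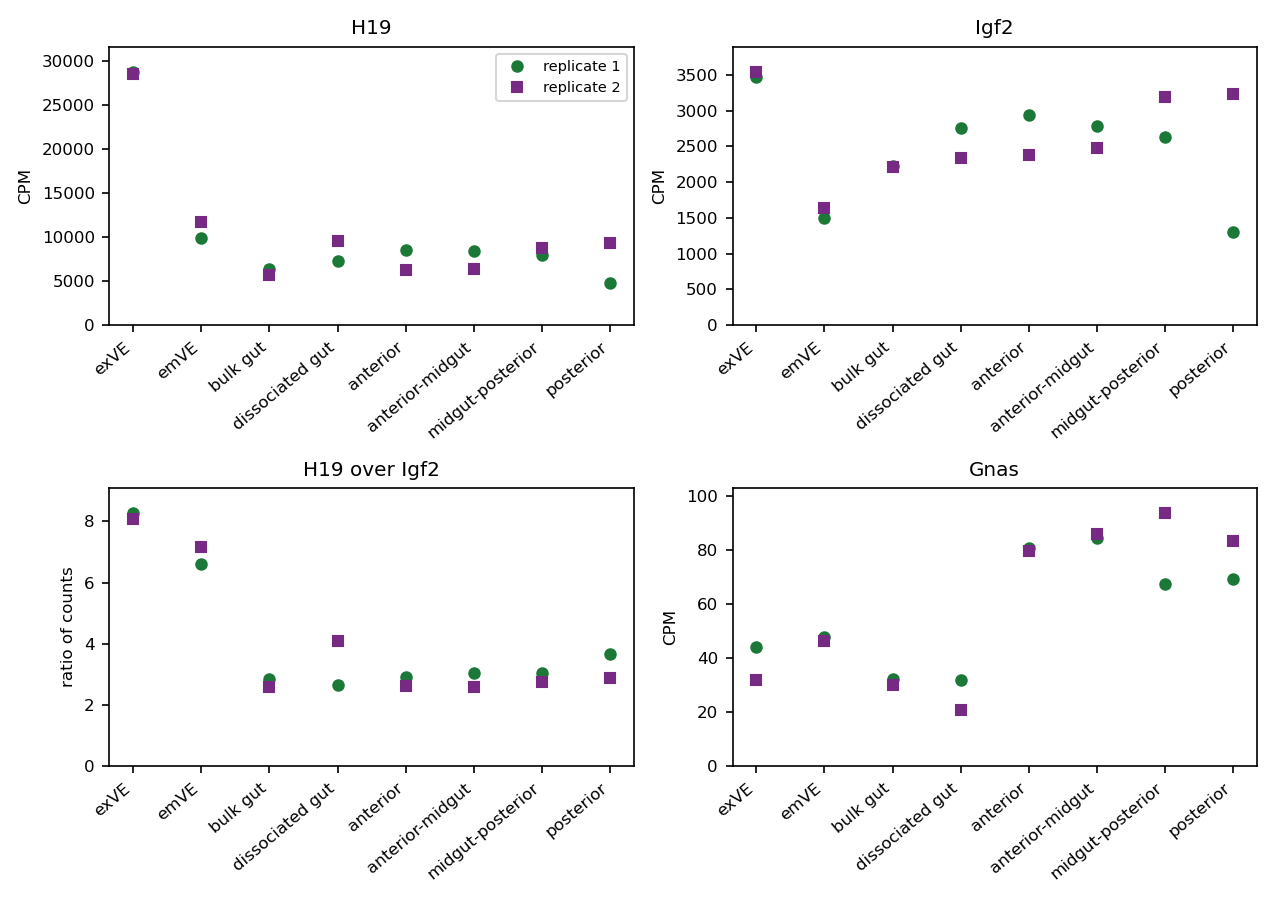
Levels of H19, Igf2 and Gnas (CPM) and the ratio of H19 counts to Igf2 counts in each library, by group, with replicate 1 as circles and replicate 2 as squares. H19 is 28532 and 28742 CPM in exVE and at most 11749 CPM elsewhere; the ratio is above 6 in exVE and emVE and below 5 in the gut tube; Gnas is above 67 CPM in the 8 section libraries and below 33 CPM in the 4 whole gut tube libraries.

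In the Kcnq1 domain, 3 of 9 genes fell in exVE and 2 rose. Kcnq1, a potassium channel gene, was close to absent from exVE with 2 counts in each library (0.0403 and 0.0389 CPM), against 1.30 and 1.34 CPM in emVE. Its fitted log2 fold change of -5.0 (SE 0.45, adjusted p = 8.5e-06) rests on those few counts. Cdkn1c, the cell cycle inhibitor, stood at 85.7 and 60.5 CPM in exVE and 215 and 227 CPM in emVE, a log2 fold change of -1.60 (SE 0.24, adjusted p = 0.000255). Part of this value may belong to an annotated antisense gene, Gm44732, which overlaps 30.7% of the exon length of Cdkn1c. Osbpl5, a lipid transfer protein, stood at 1.33 and 0.428 CPM in exVE and 3.94 and 5.72 CPM in emVE, a log2 fold change of -2.46 (SE 0.39, adjusted p = 0.000365) that was -3.49 without exVE replicate 1 and -1.86 without exVE replicate 2. Nap1l4 (0.29) and Cd81 (0.27) at the edge of the domain passed as higher, but both turned to lower values, without passing, when libraries were scaled by their totals alone. Phlda2, a growth repressor of the placenta, was 140 and 107 CPM in exVE and 80.5 and 90.3 CPM in emVE, and did not pass.

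All 3 members of the Prader-Willi domain, which are paternally expressed, fell in exVE. Ndn, which encodes a growth suppressor of the MAGE family, stood at 2.22 and 1.40 CPM in exVE and 18.2 and 16.9 CPM in emVE. Its log2 fold change was -3.28 (SE 0.25, adjusted p = 2.6e-06), the smallest adjusted p among the members. Magel2, another MAGE gene, stood at 1.45 and 0.272 CPM in exVE and 12.2 and 9.59 CPM in emVE, a log2 fold change of -3.66 (SE 0.69, adjusted p = 0.00119). Its value was -5.31 without exVE replicate 1 and -2.90 without exVE replicate 2, and passed in both. Snrpn, a splicing protein gene, stood at 6.96 and 4.01 CPM in exVE and 53.8 and 39.2 CPM in emVE, a log2 fold change of -3.08 (SE 0.24, adjusted p = 3.1e-06). Snrpn shares 27.3% of its exon length with Gm38393 and 10.0% with Snurf, so its count may depend on how shared reads were assigned.

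Nnat, a paternally expressed membrane proteolipid gene, stood at 5.14 and 1.498 CPM in exVE and at 150 and 118 CPM in emVE, and at 145 to 354 CPM in the gut tube. The log2 fold change was -5.34 (SE 0.46, adjusted p = 5.7e-06), and both exVE libraries lay below the other 14. The value was -6.48 without exVE replicate 1 and -4.71 without exVE replicate 2. Its neighbour Blcap, in whose intron Nnat lies, was 20.9 and 18.95 CPM in exVE and 23.8 and 25.2 CPM in emVE and did not pass.

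Grb10 and Ddc, adjacent genes with opposite parental expression in some tissues, moved in opposite directions. Grb10, an adaptor that dampens insulin and IGF receptor signals, stood at 244 and 168 CPM in exVE and 960 and 981 CPM in emVE, a log2 fold change of -2.24 (SE 0.19, adjusted p = 6.4e-06). Ddc, which makes dopamine and serotonin, stood at 93.9 and 86.3 CPM in exVE and 50.7 and 55.3 CPM in emVE, a log2 fold change of 0.77 (SE 0.24, adjusted p = 0.0219). The Ddc call was lost with any 1 of the 4 libraries left out.

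In the Dlk1-Meg3 domain, 2 of 4 members rose and none fell. Mirg stood at 196 and 205 CPM in exVE and 125 and 127 CPM in emVE, a log2 fold change of 0.67 (SE 0.17, adjusted p = 0.00750). Dlk1, a membrane protein related to Notch ligands, stood at 214 and 207 CPM in exVE and 87.6 and 112 CPM in emVE, a log2 fold change of 1.07 (SE 0.38, adjusted p = 0.0359) that was lost with any 1 library left out. Meg3 stood at 964.5 and 1071 CPM in exVE and 687 and 724 CPM in emVE and did not pass (log2 fold change 0.53, adjusted p = 0.0612). The retrotransposon-derived Rtl1 was 7.97 and 8.93 CPM in exVE and 6.63 and 8.66 CPM in emVE, so these groups overlapped.

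In the Peg3 domain, Usp29, a deubiquitinase gene, stood at 9.80 and 9.28 CPM in exVE and 32.5 and 39.2 CPM in emVE, a log2 fold change of -1.91 (SE 0.18, adjusted p = 1.2e-05). Peg3, the zinc-finger gene whose promoter window is shared with Usp29, stood at 856 and 911 CPM in exVE and 1520 and 1319 CPM in emVE and did not pass (log2 fold change -0.68, adjusted p = 0.0555). Zim1, a maternally expressed zinc-finger gene, was 8.17 and 6.26 CPM in exVE and 14.2 and 14.4 CPM in emVE, and did not pass either. The exVE libraries lay below the emVE libraries for all 3 genes. Here and below, in comparisons of 2 groups, the share of all genes separated in this way was not counted. Such a separation only describes the values.

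Other members that fell were Calcr, Asb4 and Ppp1r9a of the Peg10-Sgce domain (log2 fold changes -2.75, -1.30 and -0.89), Plagl1 (-2.18) and Dcn (-4.96). Plagl1, a zinc-finger transcription factor, stood at 1.71 and 1.95 CPM in exVE and 7.64 and 8.95 CPM in emVE. Dcn, an extracellular matrix proteoglycan, had 2 counts in each exVE library and 1.17 and 1.40 CPM in emVE. Impact, a regulator of translation, rose by 0.96. Peg10 stood at 2355 and 2564 CPM in exVE and 1420 and 1486 CPM in emVE without passing.

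Markers of several other cell types changed in the same comparison. Of 12 paraxial and presomitic mesoderm genes 8 fell and none rose (median log2 fold change -5.10), with sums of 12.1 and 6.48 CPM in exVE and 472 and 453 CPM in emVE. Of 12 neural genes 7 fell, with sums of 6.69 and 2.86 CPM against 84.3 and 70.8 CPM. Of 13 cardiac genes 7 fell, although their sums were 448 and 501 CPM in exVE and 231 and 262 CPM in emVE. Primitive blood genes rose in 7 of 11, with sums of 88.9 and 38.3 CPM against 16.3 and 19.1 CPM, and endothelial genes in 6 of 12. Of 17 mesenchyme genes, 6 fell in exVE and none rose, with 4 at 0 counts in each exVE library and at most 1 in an emVE library. Their summed levels were 264 and 259 CPM in exVE and 199 and 217 CPM in emVE. Pdgfra alone made up 191 and 214 CPM of these sums in exVE and 77.3 and 80.0 CPM in emVE. Visceral endoderm markers rose in 4 of 23. The part of these cell types in the members' changes was not tested. With library totals alone, which lowers the median log2 fold change of all genes by 0.357, the members that passed split into 3 higher and 20 lower in place of 9 and 14. H19, Igf2r and Impact were the 3 that stayed higher. Of the 23 calls, 18 held with each of the 4 libraries left out in turn.

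**Figure D3:**
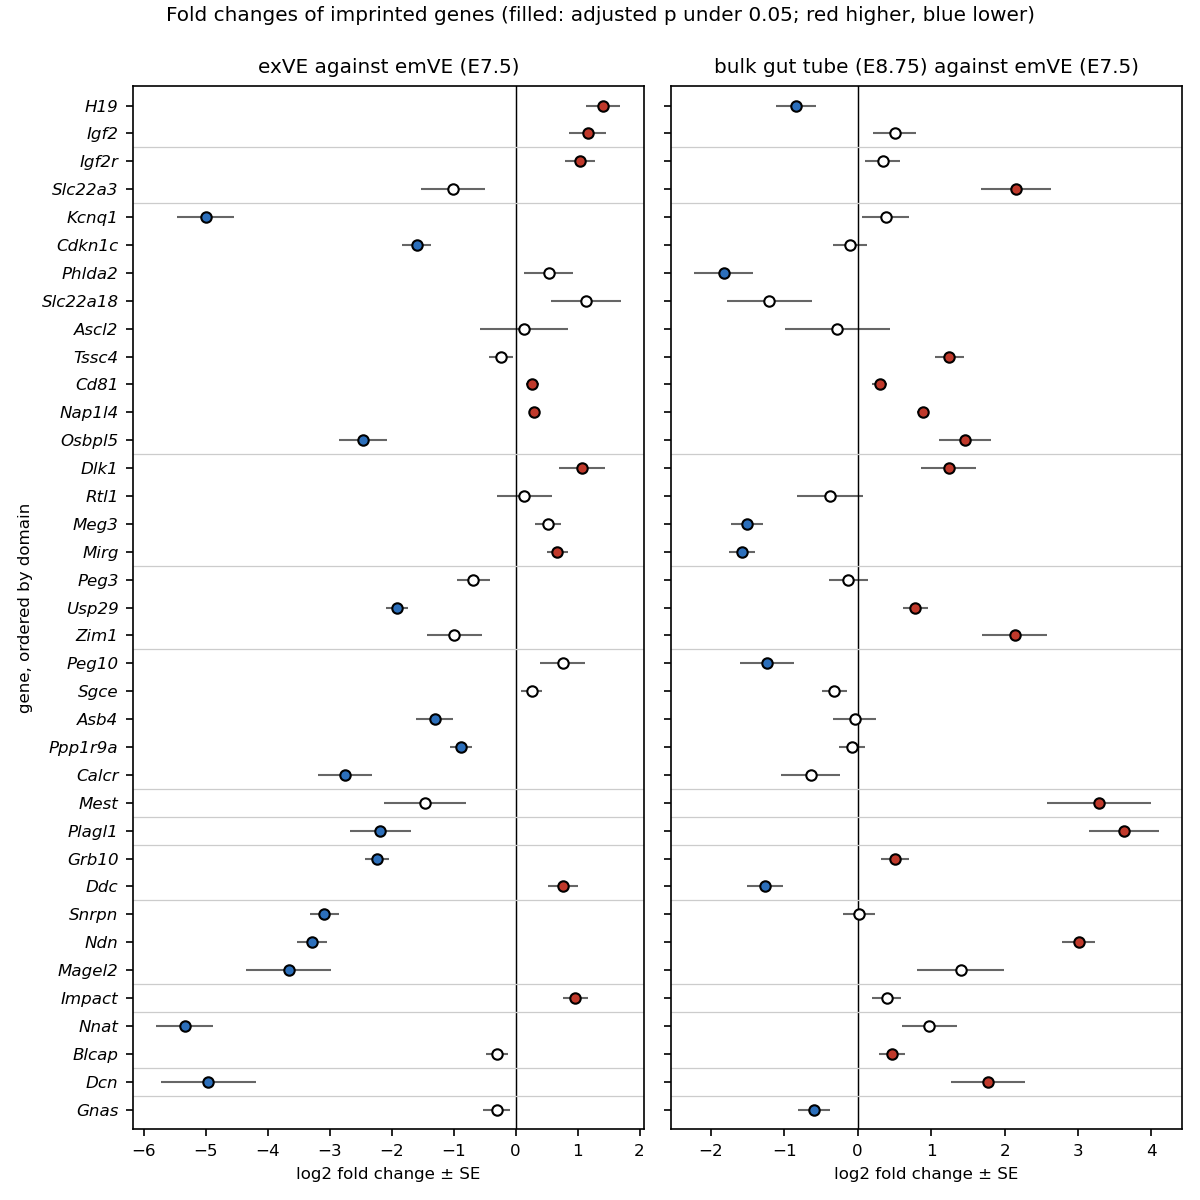
Log2 fold change with its standard error for each of the 37 imprinted genes, ordered by domain, in exVE against emVE (left) and in bulk gut tube against emVE (right); filled points passed an adjusted p under 0.05, red higher and blue lower, under TMM scaling. On the left, 9 points are red and 14 blue, with Cd81 and Nap1l4 turning to the other side of 0 when libraries are scaled by totals alone; on the right, 14 are red and 7 blue.

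The bulk gut tube at E8.75 was compared with emVE at E7.5, the part of the visceral endoderm from which cells enter the gut; stage and tissue cannot be told apart here. Ndn, Plagl1, Mest, Zim1, Slc22a3 and Dcn were higher in the gut tube by 3 times or more, and Phlda2, Mirg, Meg3, Ddc and Peg10 were lower by 2 times or more. In all, 21 of 37 members passed (56.8%), 14 higher and 7 lower, where 38.6% of all genes passed (21.7% higher and 16.9% lower). The median log2 fold change was 0.34 over the members and 0.08 over all genes. Of the maternally expressed genes 8 rose and 4 fell, and of the paternally expressed genes 5 rose and 2 fell.

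Ndn stood at 158 and 125 CPM in bulk gut tube against 18.2 and 16.9 CPM in emVE, a log2 fold change of 3.01 (SE 0.23, adjusted p = 8.4e-06). Plagl1 stood at 92.7 and 112 CPM against 7.64 and 8.95 CPM, a log2 fold change of 3.62 (SE 0.48, adjusted p = 0.000175). Mest stood at 786 and 938 CPM against 89.0 and 87.1 CPM, a log2 fold change of 3.29 (SE 0.71, adjusted p = 0.00351). These were the highest fold changes among the members in this comparison, and in each the groups did not overlap. Mest shares 23.1% of its exon length with Copg2 on the opposite strand.

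Zim1 stood at 62.4 and 63.5 CPM against 14.2 and 14.4 CPM (log2 fold change 2.14, SE 0.45, adjusted p = 0.00293). Usp29 stood at 66.1 and 57.8 CPM against 32.5 and 39.2 CPM (log2 fold change 0.79, SE 0.18, adjusted p = 0.00447). Peg3, between 1187 and 1410 CPM in bulk gut tube, overlapped emVE. The bulk libraries lay above both emVE libraries for Zim1 and Usp29.

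Meg3 and Mirg fell together. Meg3 stood at 264 and 233 CPM in bulk gut tube against 687 and 724 CPM in emVE, a log2 fold change of -1.504 (SE 0.22, adjusted p = 0.000299). Mirg stood at 48.5 and 36.0 CPM against 125 and 127 CPM, a log2 fold change of -1.58 (SE 0.18, adjusted p = 6.1e-05). Dlk1, paternally expressed from the same domain, rose instead, from 87.6 and 112 CPM to 279 and 192 CPM (log2 fold change 1.24, SE 0.38, adjusted p = 0.0219), but not with bulk replicate 1 or either emVE library left out.

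Phlda2 fell from 80.5 and 90.3 CPM to 18.8 and 29.5 CPM, a log2 fold change of -1.82 (SE 0.40, adjusted p = 0.00413). Ddc fell from 50.7 and 55.3 CPM to 22.9 and 21.4 CPM, a log2 fold change of -1.26 (SE 0.24, adjusted p = 0.00187). H19 fell from 9871 and 11749 CPM to 6334 and 5735 CPM, a log2 fold change of -0.84 (SE 0.27, adjusted p = 0.0270), and that call was lost with any 1 of the 4 libraries left out. Igf2 stood at 2232 and 2212 CPM in the gut tube, above both emVE libraries, without passing.

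Among maternally expressed genes, Nap1l4 (log2 fold change 0.89), Tssc4 (1.25), Slc22a3 (2.16), a transporter of organic cations, Osbpl5 (1.46), Dcn (1.78), Grb10 (0.51) and Cd81 (0.30) rose. Blcap rose by 0.47 and Gnas fell by 0.59 on the log2 scale. Peg10 fell from 1420 and 1486 CPM to 526 and 711 CPM. Nnat, at 303 and 225 CPM against 150 and 118 CPM, did not pass (log2 fold change 0.98, adjusted p = 0.0566).

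Beside these changes, 15 of 17 mesenchyme markers rose, with a summed level of 1411 and 1140 CPM in the gut tube. Endothelial markers rose in 11 of 12 (median log2 fold change 4.36; sums 615 and 603 CPM in the gut tube), primitive blood markers in 9 of 11 (median 2.79; sums 486 and 805 CPM) and cardiac markers in 7 of 13, and 22 of 23 visceral endoderm markers fell, to 672 and 1407 CPM; their part in the members' changes was not tested. Of the 21 calls, 12 held with each library left out: Ddc, Meg3, Mest, Mirg, Nap1l4, Ndn, Phlda2, Plagl1, Slc22a3, Tssc4, Usp29 and Zim1. With each library left out, the share of all genes that passed fell as well.

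Along the gut tube, 11 of 37 members (29.7%) differed among the 4 sections by the F-test, where 12.9% of all genes did. Their means formed several patterns, which the F-test does not test. Mirg, Meg3, Dlk1, Ndn and Dcn had lower means at both ends than in the middle sections. Of these genes only Dcn passed as lower in the posterior section than in its neighbour, and that call depended on single libraries. Usp29 and Asb4 had their lowest mean at the posterior end, and Phlda2 had its lowest at the anterior end. Slc22a3, Kcnq1 and Magel2 had their highest mean at the posterior end. The maternally expressed genes supplied 7 of the 11 and the paternally expressed genes 4. With either anterior library left out the count of members was lower, and so was the share of all genes that passed.

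Against the anterior section, the section from anterior to midgut had 6 members higher and none lower (16.2%), where 5.59% of all genes passed (3.42% higher, 2.17% lower). The median log2 fold change was 0.41 over the members and 0.01 over all genes. Mirg stood at 24.2 and 20.2 CPM in the anterior section and at 57.1 and 54.2 CPM in the next, a log2 fold change of 1.33 (SE 0.17, adjusted p = 0.00157). Meg3 stood at 128 and 110 CPM and at 246 and 300.5 CPM, a log2 fold change of 1.20 (SE 0.21, adjusted p = 0.00799). Dlk1 stood at 111 and 166 CPM and at 515 and 359 CPM, a log2 fold change of 1.66 (SE 0.38, adjusted p = 0.0263). In these 3 genes of the Dlk1-Meg3 domain the sections did not overlap. Rtl1, the other member of the domain, had means of 2.02 and 4.94 CPM and did not pass.

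Phlda2 stood at 13.9 and 14.5 CPM in the anterior section and 79.0 and 32.8 CPM in the next, a log2 fold change of 1.97 (SE 0.41, adjusted p = 0.0156) that was 1.20, without passing, when replicate 1 of the latter was left out. Ndn rose from 80.3 and 106 CPM to 162 and 169 CPM (log2 fold change 0.83, SE 0.21, adjusted p = 0.0414). Dcn rose from 4.84 and 3.35 CPM to 17.8 and 12.9 CPM (log2 fold change 1.91, SE 0.49, adjusted p = 0.0440). In each case the 2 sections did not overlap. The 1 call that held with each library left out was that of Mirg, and the share of all genes that passed fell in those fits as well. The count was 10 with DESeq2 and 12 when only these 2 groups were fitted. The share over all genes is not given here for either.

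Visceral endoderm markers changed in the same comparison: 20 of 23 rose, and their sum was 300 and 313 CPM in the anterior section and 8135 and 2915 CPM in the next. Mesenchyme markers summed to 588 and 908 CPM and to 2189 and 1991 CPM, with a median log2 fold change of 1.34 and none of 17 passing. Their part in the members' changes was not tested.

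The posterior section had 4 members higher than the anterior section and none lower (10.8%), where 7.91% of all genes passed (4.03% higher, 3.89% lower). Phlda2 stood at 49.1 and 91.0 CPM in the posterior section, a log2 fold change of 2.30 (SE 0.41, adjusted p = 0.00495). Slc22a3 stood at 5.78 and 4.24 CPM against 1.17 and 1.24 CPM, a log2 fold change of 2.06 (SE 0.45, adjusted p = 0.0153). Magel2 stood at 33.0 and 50.1 CPM against 6.21 and 6.93 CPM, a log2 fold change of 2.66 (SE 0.62, adjusted p = 0.0210). Posterior libraries were above both anterior libraries for all 3. Mirg was also higher, at 32.8 and 40.4 CPM (log2 fold change 0.72, SE 0.17, adjusted p = 0.0247).

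None of these 4 calls held with each library left out, and a smaller share of all genes passed in each of those fits too. DESeq2 called 9 members, and its share over all genes is not given here. Plg on the opposite strand overlaps 9.3% of the exon length of Slc22a3. Of the visceral endoderm markers 10 of 23 rose in the posterior section, with sums of 362 and 1614 CPM, and of the mesenchyme markers none of 17 passed. Cardiac markers fell in 9 of 13 (median log2 fold change -5.04), with sums of 738 and 1268 CPM in the anterior and 45.0 and 174 CPM in the posterior section. Presomitic and paraxial mesoderm markers rose in 3 of 12 and fell in 1. The part of these cell types in the members' changes was not tested.

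From the section reaching from midgut to posterior into the posterior section, 2 members fell (5.41%), where 2.26% of all genes passed (1.13% higher, 1.14% lower). Dcn stood at 9.28 and 14.9 CPM and then at 0.733 and 2.91 CPM, a log2 fold change of -2.73 (SE 0.51, adjusted p = 0.0177) that was -2.05 without posterior replicate 1 and -4.04 without posterior replicate 2. Usp29 stood at 44.9 and 55.6 CPM and then at 23.0 and 32.7 CPM, a log2 fold change of -0.85 (SE 0.18, adjusted p = 0.0300). Both calls depended on single libraries. Each was lost without replicate 1 or replicate 2 of the section from midgut to posterior, or without posterior replicate 1. The share of all genes that passed fell in those fits as well. DESeq2 called 8 members, and its share over all genes is not given here. Mesenchyme markers had a median log2 fold change of -1.26 with none of 17 passing.

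Between the 2 middle sections no member passed with edgeR, where 0.497% of all genes did (0.173% higher, 0.323% lower). At an unadjusted p under 0.05 there were 2 members and 1241 of all 17313 genes tested. The 2 members were Cdkn1c (log2 fold change -0.82, adjusted p = 0.214) and Asb4 (-0.99, adjusted p = 0.233). DESeq2 called 1 member, and its share over all genes is not given here.

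**Figure D4:**
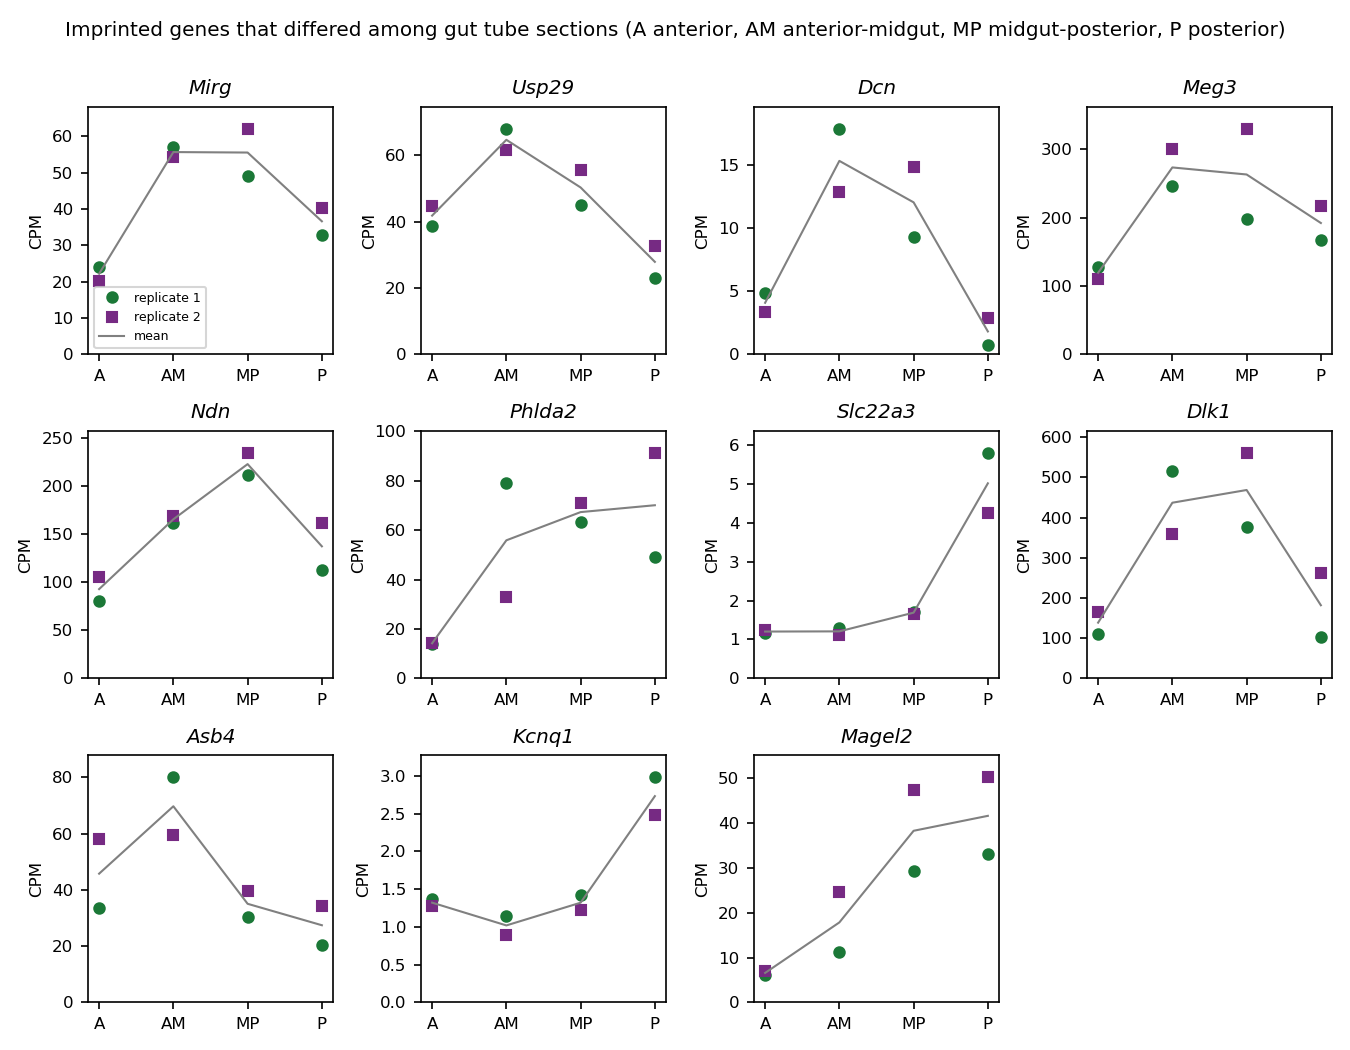
CPM of the 11 imprinted genes that differed among the 4 gut tube sections (A anterior, AM anterior to midgut, MP midgut to posterior, P posterior), ordered by adjusted p, with replicate 1 as circles, replicate 2 as squares and the mean as a line. Mirg, Meg3, Dlk1, Ndn and Dcn peak in AM or MP, and Slc22a3 stays between 1.12 and 1.72 CPM up to MP and reaches 4.24 and 5.78 CPM in P.

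Between dissociated and bulk gut tube no member passed edgeR's test, and 0% of all 17313 genes passed. At an unadjusted p under 0.05 there were 5 members and 2809 genes of all, and DESeq2 called 0 members. Without dissociated replicate 1, which left that group with 1 library, 8 members passed (4 higher, 4 lower), where 26.6% of 17891 genes did. The dissociated libraries were far apart: Mest was 1094 CPM in replicate 1 and 212 CPM in replicate 2, and Magel2 was 33.2 and 11.5 CPM. Replicate 2 had a mesenchyme sum of 1192 CPM against 2066 CPM in replicate 1, a visceral endoderm sum of 4315 against 1172 CPM, and a cardiac sum of 2431 against 438 CPM. The part of these cell types in the spread was not tested.

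Gnas, which encodes the stimulatory G protein subunit, stood apart between whole and sectioned tubes. It was 32.3 and 30.0 CPM in bulk gut tube and 32.0 and 20.8 CPM in dissociated gut tube, but 67.5 to 93.7 CPM in the 8 section libraries. The lowest section library was 2.09 times the highest whole library. Of 15660 genes with counts in all 12 gut tube libraries, 6 (0.0383%) were separated by more than 2 times in this direction; Gnas was singled out after its values were seen. Gm20721 on the opposite strand overlaps 13.1% of its exon length.

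The 2 posterior libraries differed more in imprinted genes than in genes at large, as did the libraries of some other groups. On the scale of log2(CPM + 0.5), replicate 2 exceeded replicate 1 by a median of 0.42 over the members and by 0.00 over all genes, and 28 of the 37 members were higher in it. More than a doubling was seen in 8 members (21.6%) and in 2.37% of all genes, and no member was lower by that much. Paternally expressed genes made up 6 of the 8. Of the 15 paternally expressed members 14 were higher in replicate 2, and of the 20 maternally expressed members 12 were. In exVE 10.8% of members were lower in replicate 2 by more than 1 on this scale, against 2.25% of all genes. In the dissociated gut tube these shares were 10.8% and 5.94%, and in the section from anterior to midgut 5.41% and 1.36%. No member differed by that much in bulk gut tube or in the anterior section.

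Igf2 was 1299 CPM in posterior replicate 1 and 3236 CPM in replicate 2. Peg10 was 489 and 1300 CPM, Dlk1 103 and 261 CPM, and Mest 641 and 1552 CPM. Dcn and Rtl1 differed 2.77 and 2.72 times on the same scale with its pseudocount, Zim1 2.26 times and Plagl1 2.09 times. Mesenchyme markers differed in the same direction, 509 against 1599 CPM in sum with 15 of 17 more than doubled, and so did visceral endoderm markers, 362 against 1614 CPM with 17 of 23 more than doubled. Primitive blood markers summed to 812 and 832 CPM. The part of these cell types in the difference was not tested.

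**Figure D5:**
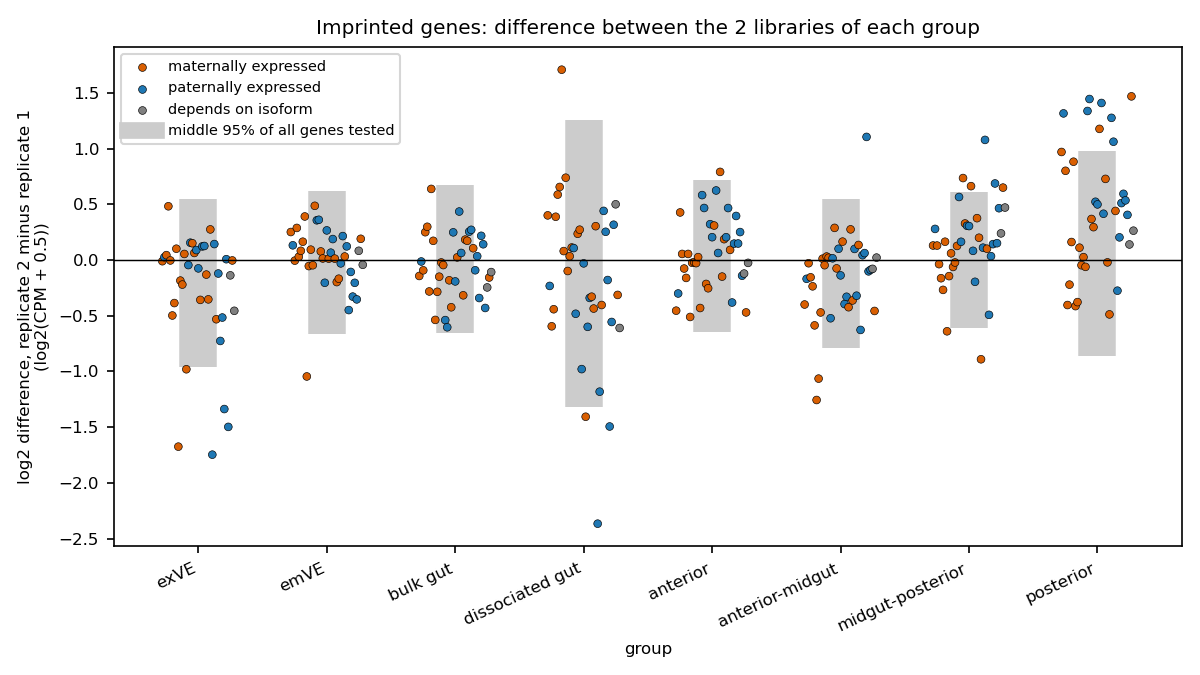
Difference between the 2 libraries of each group, as log2(CPM + 0.5) of replicate 2 minus replicate 1, for the 37 imprinted genes (points, coloured by the allele reported as expressed), with the middle 95% of all genes tested in grey. In the posterior section 8 members lie above 1 and none below -1, and in the dissociated gut tube Mest lies at -2.37.

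The machinery that sets and keeps imprints was followed with 23 genes. In exVE against emVE 4 passed (17.4%, against 43.9% of all genes): Suz12 of Polycomb complex 2 rose (195 against 123 CPM, log2 fold change 0.66), while Trim28 (-0.46), Setdb1 (-0.27) and Zfp57 (-0.62) fell. Zfp57 was 25.4 ± 4.22 CPM in exVE and 39.1 ± 4.80 CPM in emVE (SD, n = 2). In bulk gut tube against emVE 8 passed (34.8%, against 38.6% of all genes), 6 higher and 2 lower, led by the methyltransferase gene Dnmt3b, which fell from 461 to 96.1 CPM (log2 fold change -2.26, SE 0.14, adjusted p = 5.2e-06). Ezh2 (0.47), Dnmt3a (0.86) and Uhrf1 (0.41) were among those that rose.

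In the sections, Dnmt3a rose in both comparisons with the anterior section (log2 fold change 0.85 next to it and 0.67 in the posterior section), and Dnmt3b fell next to it (-0.63). In each of these comparisons 2 of the 23 genes passed (8.7%). The share of all genes was 5.59% next to the anterior section and 7.91% in the posterior section. Dppa3, a protector of maternal methylation that also marks primordial germ cells, was at 0 counts in both anterior libraries and at 15.995 and 2.42 CPM in the posterior libraries, and passed as higher (adjusted p = 0.00495). The 2 posterior values were far apart. Dppa3 was also at 0 counts in both libraries from anterior to midgut, and at 6.74 and 1.97 CPM in those from midgut to posterior.

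Genes of the insulin-like growth factor pathway other than the members numbered 20. In exVE against emVE 10 passed (50% of them, against 43.9% of all genes), 5 in each direction: Akt1 (log2 fold change 0.88) rose, and Igfbp3 (-2.44) and Igf1r (-1.70), which encodes the receptor that relays IGF2 signals, fell. Igf1r was 13.3 ± 3.46 CPM in exVE and 43.4 ± 1.16 CPM in emVE (SD, n = 2). In bulk gut tube against emVE 10 passed (50%, against 38.6% of all genes), 8 higher and 2 lower, with Igf1 (5.73), Igfbp5 (2.28), Igf1r (1.17) and Akt1 (1.14) higher. Against the anterior section, Igfbp5, a binding protein, was lower in the posterior section (242 against 2375 CPM, log2 fold change -3.29, adjusted p = 0.000212). It was the 1 gene of the 20 that passed there (5%, against 7.91% of all genes). In the section from anterior to midgut, 4 of the 20 passed against the anterior section, 1 higher and 3 lower (20%, against 5.59% of all genes).

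Of 33 other imprinted genes tested, 21 passed in exVE against emVE (63.6%, against 43.9% of all genes), 9 higher and 12 lower. Inpp5f (0.94) and Gab1 (0.88) rose and Tnfrsf22 (-3.22) and Zdbf2 (-2.23) fell. Sfmbt2, named after its values were seen, was 267 and 285 CPM in exVE, 65.7 and 73.3 CPM in emVE and 2.35 to 18.4 CPM in the gut tube libraries. Its log2 fold change in exVE was 1.99 (SE 0.42, adjusted p = 0.00248). In bulk gut tube against emVE 14 passed (42.4%, against 38.6% of all genes), 8 higher and 6 lower, with Peg12 (3.30) higher and Gab1 (-1.29), Inpp5f (-1.19) and Herc3 (-2.15) lower. In the posterior against the anterior section 3 passed (9.09%, against 7.91% of all genes). Dio3 (3.39) and Sfmbt2 (1.64) were higher and Th was lower (0.0183 against 0.448 CPM).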

How the data were processed

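PolyA RNA-seq count tables of 16 libraries were used. The authors deposited raw counts, 1 table per library of 26795 entries; alignment used STAR per the submitters' processing notes, and its version, the genome build, the annotation, the counting tool and the use of strand are not stated. Between 68.8% and 85.4% of entries with 1 to 20 counts were even numbers, so counts may not be single fragments. Entries of 32 symbols listed more than once were summed, giving 26761 symbols. Groups were read from the labels. Genes were kept by edgeR's filterByExpr (minimum count 10, minimum total 15), which left 17313, and all libraries were fitted in 1 quasi-likelihood model (edgeR 4.0.16, R 4.3.3) with TMM factors, 7 pairwise contrasts and 2 F-tests, Benjamini-Hochberg adjusted over all genes tested. A call is an adjusted p under 0.05. The scripts were tested on simulated data. Exon lengths and overlaps come from GENCODE M21, whose match to the authors' annotation is not known. Every member may be named; with each comparison at most 12 that passed, by smallest adjusted p, get full statistics, and up to 4 genes are named from other lists. Members, lists and tests were chosen with earlier results of these data known, and the lists are no independent evidence. Alternatives were RLE factors, no filter, a replicate block, only the compared groups, DESeq2 1.42.0, each library left out and, added after seeing the data, library totals alone and a crossed block.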

Additional observations from a re-analysis of the deposited data

How the results depend on the processing

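The counts of imprinted genes that passed kept within 1.5 times under RLE factors, without the filter, with the replicate block and with library totals alone in all 9 tests. With 1 library left out, the counts ran from 19 to 21 in exVE against emVE (23 with all), 12 to 17 in bulk gut tube against emVE (21), 0 to 5 in posterior against anterior (4), 1 to 4 in anterior to midgut against anterior (6), 0 to 8 in posterior against midgut to posterior (2), 0 to 8 in dissociated against bulk gut tube (0), 6 to 15 among the 4 sections (11) and 30 to 35 among the 8 groups (34). DESeq2 called 9 in posterior against anterior, 10 in anterior to midgut against anterior, 1 between the middle sections, 8 in posterior against midgut to posterior and 19 among the 4 sections. Fitting only the compared groups gave 12 in anterior to midgut against anterior, 1 between the middle sections and 0 in posterior against midgut to posterior. With 1 library left out, the share of all genes that passed was also lower in most fits. For DESeq2 and for fits of only the compared groups that share is not given here. Whether any of these shifts in counts is particular to imprinted genes was not tested, and so none is read as a result about them. The causes of the shifts were not tested. With library totals alone, Cd81 and Nap1l4 turned to log2 fold changes of -0.11 and -0.083 in exVE against emVE, and Igf2 (0.78, adjusted p = 0.0521), Dlk1 (0.70), Mirg (0.30) and Ddc (0.39) no longer passed.

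The replicate numbers are not stated to pair libraries, and with 2 libraries per group they were not used as pairs. The correlation of same-numbered deviations was -0.228 in dissociated against bulk gut tube, -0.113 in bulk gut tube against emVE and 0.115 in exVE against emVE, and positive in all 4 section comparisons (0.151 to 0.367). With the replicate block, 24 members passed in exVE against emVE, 18 in bulk gut tube against emVE, 4 in each comparison with the anterior section, 2 in posterior against midgut to posterior, 9 among the sections and 33 among the groups. The block lost Ndn and Dcn in anterior to midgut against anterior (adjusted p = 0.0623 and 0.0614), Kcnq1 and Magel2 among the sections (0.0505 and 0.0648), Grb10, Blcap and Gnas in bulk gut tube against emVE, and Igf2r among the groups, and gained Meg3 in exVE against emVE (0.0475). The crossed block, where numbers deviated in opposite directions, gave 18 in bulk gut tube against emVE and 0 in dissociated against bulk gut tube. With 2 libraries a group, low genes such as Kcnq1 and Dcn in exVE rest on 2 counts a library.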
